A study of Mus musculus with 8 samples.

Results

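The subject is a set of 9 mouse genes that build the T cell receptor complex and its earliest signalling steps: the CD3 chains Cd3g, Cd3e and Cd3d, the zeta chain Cd247, the coreceptor Cd4, the kinases Lck and Zap70, and the adaptors Lat and Trat1. They were listed by name and found by gene symbol. All 9 were among the 25124 genes of the deposited table, and all 9 passed the filter on low counts that left 19146 genes for testing. The cells were CD4 T cells sorted from spleens of mice that carry a GFP reporter for KLF2, a transcription factor of resting T cells, and an RFP reporter for FOXP3, the regulatory T cell factor. All cells were given as FOXP3 negative and as CD44hi, as activated and memory T cells are, and RNA was taken after 48 h in culture. The groups were KLF2+ cells stimulated with 2.5 µg/mL anti-CD3 and 1.25 µg/mL anti-CD28, unstimulated KLF2+ cells, KLF2- cells stimulated with the same antibodies, and unstimulated KLF2- cells. Each group had 2 libraries, numbered 1 and 2 for KLF2+ and 3 and 4 for KLF2-. The labels do not say that the libraries came from separate animals or cultures, so p-values measure only the spread between these libraries, which may be technical.

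The T cell receptor recognises peptide on MHC molecules but has no signalling tail of its own. The CD3 and zeta chains carry the tyrosine motifs that Lck, brought in by the coreceptor CD4, phosphorylates. ZAP-70 binds the phosphorylated motifs and phosphorylates the adaptor LAT, on which downstream enzymes assemble. The stimulating anti-CD3 antibody binds this complex directly, and surface receptor is known to be internalised after such binding.

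Cd3g, Cd3d and Cd3e lie together on mouse chromosome 9 (build mm10). Cd3g spans chr9:44969572-44980431 on the minus strand and Cd3d chr9:44981786-44987052 on the plus strand, so they are transcribed away from each other from starts 1355 bases apart. Cd3e spans chr9:44998743-45009611 on the minus strand, its start 27825 bases from that of Cd3d. Cd247 is at chr1:165788681-165862112 (plus), Zap70 at chr1:36761798-36782820 (plus), Cd4 at chr6:124864693-124888200 (minus), Lck at chr4:129548344-129573641 (minus), Lat at chr7:126363828-126369568 (minus) and Trat1 at chr16:48730774-48772062 (minus). These are the spans of the transcripts counted. The overlaps that follow were read over all exons of each gene in the GENCODE M21 annotation, not only those of the transcript counted. Exons of Cd3e overlap those of the antisense gene Gm48719 by up to 135 bases. Exons of Cd247 overlap those of Gm16565 by up to 206 bases and those of Pou2f1, on the other strand, by up to 2136 bases. The Cd247 transcript counted has only 1676 exon bases, so the overlap of 2136 bases cannot lie wholly in counted exons. Exons of Lck overlap the microRNA gene Mir8119 by up to 25 bases and those of Lat overlap Mir7058 by up to 75 bases. How much of these overlaps lies in the exons counted was not read. Whether counting used strand is not given in the sources used here, so reads of any overlapping counted exons could not be told apart.

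Promoter sequence in RefSeq (GRCm38.p6) was matched by symbol and by the start of the transcript counted. This gave a match for 8 of the 9 genes, all but Cd4. The 250 bases before the start are shown for Cd3g and Cd3d, which are transcribed in opposite directions from neighbouring starts, for Cd247, which with Cd3d gave the most stable difference below, and for Trat1, which differed in resting cells. They are written 5′ to 3′ on the strand of the gene, and capitals mark matches on either strand to short motifs. The letters of the ETS factor motif were AGGAAG. Those of the RUNX factor motif were TGTGGT. Those searched for the E proteins were CACCTG. Those searched for TCF and LEF factors were CTTTGA. Those searched for the GATA factors were AGATAA. Those searched for the KLF factors were CCACCC.
Cd3g, chr9:44980432-44980681, minus strand: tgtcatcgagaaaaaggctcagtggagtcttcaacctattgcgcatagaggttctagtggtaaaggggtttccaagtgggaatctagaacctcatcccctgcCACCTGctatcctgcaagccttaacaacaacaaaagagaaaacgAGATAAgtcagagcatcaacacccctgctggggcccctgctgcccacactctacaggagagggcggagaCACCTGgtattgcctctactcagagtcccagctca
Cd3d, chr9:44981536-44981785, plus strand: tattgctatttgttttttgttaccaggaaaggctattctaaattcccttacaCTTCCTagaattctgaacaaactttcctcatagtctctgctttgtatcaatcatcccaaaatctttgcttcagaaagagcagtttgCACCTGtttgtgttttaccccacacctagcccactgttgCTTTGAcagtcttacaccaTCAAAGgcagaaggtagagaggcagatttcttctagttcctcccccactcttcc
Cd247, chr1:165788431-165788680, plus strand: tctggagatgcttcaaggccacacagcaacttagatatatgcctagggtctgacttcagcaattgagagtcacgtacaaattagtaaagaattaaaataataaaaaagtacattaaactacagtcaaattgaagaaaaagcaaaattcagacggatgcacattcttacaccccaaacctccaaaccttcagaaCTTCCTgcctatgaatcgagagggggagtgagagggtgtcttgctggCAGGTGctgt
Trat1, chr16:48772063-48772312, minus strand: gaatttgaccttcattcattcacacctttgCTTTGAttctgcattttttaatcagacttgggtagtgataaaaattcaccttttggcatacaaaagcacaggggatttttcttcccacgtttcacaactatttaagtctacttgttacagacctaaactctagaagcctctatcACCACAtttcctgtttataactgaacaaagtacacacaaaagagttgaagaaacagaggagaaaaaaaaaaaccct
Each capital run is 6 letters, so no matches overlapped. The ETS letters were in 6 of the 8 windows (Cd3d, Cd3e, Cd247, Lck, Zap70 and Lat), against 29.5% of 32851 promoter windows of the same length. The E protein letters were in 4 windows (Cd3g, Cd3d, Cd247 and Zap70), against 17.2% of all windows. The TCF/LEF letters were in 3 (Cd3d, Zap70 and Trat1; 13.8% of all), the RUNX letters in 2 (Lck and Trat1; 14%), the GATA letters in 1 (Cd3g; 9.99%) and the KLF letters in 1 (Lat; 28.1%). A match is a run of letters and not a measured binding site.

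The libraries held 33.9 M (mega) to 45.6 M aligned tags, but reads over exons ran from 2.99 M (stimulated KLF2- replicate 4) to 36.6 M (stimulated KLF2+ replicate 2). Background, read from olfactory and vomeronasal receptor genes that T cells are not known to express, made up 0.401% to 1.24% of exon reads in stimulated KLF2+ cells, 2.61% to 7.06% in unstimulated KLF2+ cells, 11.4% to 20.1% in stimulated KLF2- cells and 7.09% to 7.80% in unstimulated KLF2- cells. Levels between libraries are therefore given on a pair of scales. The first is CPM, which sets every library to the same total, adjusted by TMM factors, edgeR's usual scaling. The other, named background subtracted, is CPM after subtracting background, with TMM factors taken only from genes of at least 50 CPM. The scales thus differ in the factors as well as in the subtraction. On the first scale, TMM factors ran from 0.626 to 1.54 and moved with background. T cell markers (10 of 10 in the table, none at 0 in any library) summed to 2592 to 7859 CPM, and the CD8 genes Cd8a and Cd8b1 to 11.4 to 26.6 CPM, against 475 to 1046 CPM for Cd4 alone. Without stimulus, Klf2 was higher in KLF2+ cells by a log2 fold change of 2.69 ± 0.33 with TMM and 2.40 ± 0.38 with background subtracted (SE, n = 2 each). With stimulus it was called higher with TMM (0.93 ± 0.32) but gave -0.39 ± 0.37 with background subtracted, not called and with overlapping groups. Cd44 did not pass with TMM (0.12 ± 0.22) and was called lower in stimulated KLF2+ cells with background subtracted (-1.17 ± 0.24). Foxp3 was called higher there with TMM (1.58 ± 0.34) and not with background subtracted (2.15 ± 0.97). Reads of Foxp3 were found in every library, at 5.23 to 21.3 CPM with TMM. Without stimulus neither Cd44 (0.19 ± 0.22 with TMM and -0.13 ± 0.23 with background subtracted) nor Foxp3 (0.32 ± 0.33 and 0.23 ± 0.88) was called.

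Per length, in the deposited TPM values, Cd3g was the most abundant of the 9 genes in 7 of 8 libraries and Lck in the eighth, stimulated KLF2- replicate 4. Zap70 and then Trat1 were the lowest in all 8. Cd3g ranged from 451.6 to 887.6 TPM over the libraries, Lck from 432.3 to 728.2 TPM, Lat from 335.3 to 686 TPM, Cd3e from 390.4 to 565.4 TPM and Cd3d from 201.6 to 423.4 TPM. Cd4 ranged from 155.4 to 318.3 TPM and Cd247 from 167.3 to 293.8 TPM, while Zap70 stood at 37.6 to 84.9 TPM and Trat1 at 20.6 to 47.1 TPM. The order of the 5 genes Cd3g, Lck, Lat, Cd3e and Cd3d changed between libraries, and that of Cd4 and Cd247 was turned in stimulated KLF2+ cells, where Cd247 was above Cd4 in both libraries. Together the 9 genes made up 0.480% to 0.783% of the TPM sum. In every library Zap70 mRNA was at 0.0719 to 0.185 of the TPM of Lck mRNA.

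**Figure D1:**
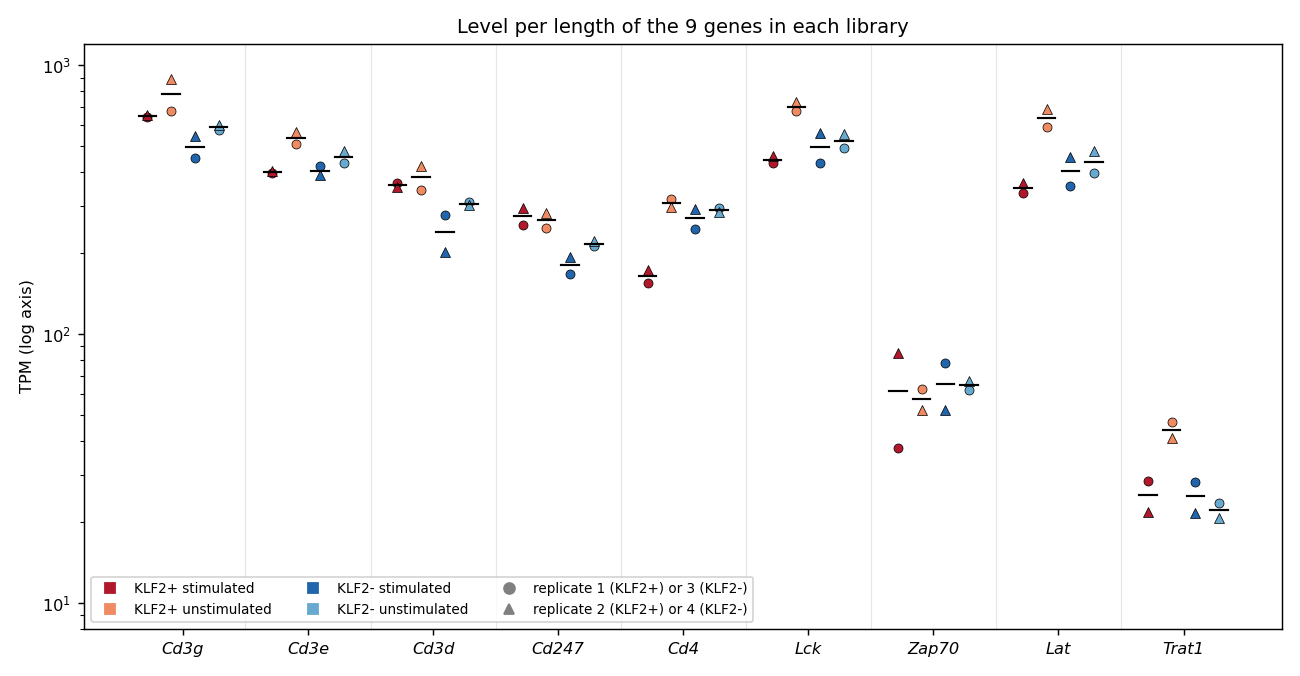
Level of each gene in TPM (log axis) in the 8 libraries, with points for libraries and a bar for the mean of each group. Cd4 was at 155.4 and 173.2 TPM in stimulated KLF2+ cells, below the other 6 libraries, and Zap70 and Trat1 were the lowest genes in each library.

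After stimulation, the CD3 delta and zeta chains stood higher in KLF2+ cells than they did in KLF2- cells on both scales. In bulk RNA, fewer cells that express a gene and less RNA per cell cannot be told apart. Cd3d, the delta chain, which pairs with CD3 epsilon, had 753 and 735 CPM in the KLF2+ libraries, against 233 and 141 CPM in the KLF2- libraries. Cd247, whose zeta product forms a homodimer with the most tyrosine motifs of the complex, had 664 and 778 CPM in KLF2+ cells, against 178 and 171 CPM in KLF2- cells. In both genes the KLF2+ libraries lay above both KLF2- libraries. Of all tested genes, 90.4% did not overlap between these groups on this scale. The log2 fold change was 1.99 ± 0.32 for Cd3d (SE, n = 2 each; Benjamini-Hochberg adjusted p = 0.000672, edgeR quasi-likelihood) and 2.05 ± 0.26 for Cd247 (adjusted p = 0.000317 by the same edgeR test). After background was subtracted, it was 0.72 ± 0.17 for Cd3d and 0.73 ± 0.16 for Cd247. Each gene passed the test in 17 of 17 alternative analyses, with log2 fold changes from 0.53 to 2.46 for Cd3d (adjusted p from 1.02e-08 to 0.0415) and from 0.60 to 2.20 for Cd247 (adjusted p from 1.94e-11 to 0.00888).

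Cd3g and Cd3e, the gamma and epsilon chains, differed by less on the background-subtracted scale, which also changes the factors. Cd3g had 1020 and 1051 CPM in stimulated KLF2+ cells, against 291 and 291 CPM in stimulated KLF2- cells. Cd3e had 894 and 924 CPM in the KLF2+ libraries, against 387 and 298 CPM in the KLF2- libraries. The groups did not overlap for either gene, and edgeR's quasi-likelihood test called both, with log2 fold changes of 1.83 ± 0.30 for Cd3g and 1.41 ± 0.28 for Cd3e (SE, n = 2 each). With background subtracted the values were 0.50 ± 0.20 and 0.10 ± 0.13, and neither was called. Cd3g was higher in 17 of 17 alternatives and called in 13, while Cd3e was higher in 14 and called in 11.

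The coreceptor gene Cd4 changed direction with the scaling. It had 745 and 842 CPM with TMM scaling in stimulated KLF2+ cells, against 480 and 475 CPM in stimulated KLF2- cells. With background subtracted it had 496 and 553 CPM in stimulated KLF2+ cells, against 688 and 898 CPM in stimulated KLF2- cells. The groups did not overlap on either scale (nor did those of 80.8% of genes with background subtracted), but KLF2+ was the higher group on one and the lower on the other. The log2 fold change was 0.73 ± 0.24 with TMM (SE, n = 2 each; Benjamini-Hochberg adjusted p = 0.0178, edgeR quasi-likelihood) and -0.60 ± 0.15 with background subtracted (adjusted p = 0.0147, in a range of 0.0021 to 0.136 over 17 alternatives). It was negative in 6 of the 17. The TMM call was lost without stimulated KLF2+ replicate 1 (0.86) or 2 (0.68), and without unstimulated KLF2- replicate 3 (0.77) or 4 (0.77).

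The kinases and adaptors followed the scaling as well. Lck, the kinase that starts the cascade, had 1416 and 1526 CPM in stimulated KLF2+ cells, against 578 and 622 CPM in stimulated KLF2- cells. Zap70, the kinase recruited to the phosphorylated chains, had 131 and 299 CPM in the KLF2+ libraries, against 111 and 61.4 CPM in the KLF2- libraries. Its KLF2+ libraries stood further apart than those of any other member, and the TMM call was lost without stimulated KLF2+ replicate 2 (log2 fold change 0.64) or stimulated KLF2- replicate 4 (0.97). Lat, the adaptor phosphorylated by ZAP-70, had 656 and 724 CPM in KLF2+ cells, against 284 and 300 CPM in KLF2- cells. Trat1, a transmembrane adaptor bound to the receptor complex, had 209 and 161 CPM in KLF2+ cells, against 84.4 and 53.6 CPM in KLF2- cells. In these 4 genes the stimulated KLF2+ libraries lay above the stimulated KLF2- libraries on the TMM scale. Their log2 fold changes with TMM were 1.29 ± 0.28 (Lck), 1.32 ± 0.38 (Zap70), 1.24 ± 0.28 (Lat) and 1.42 ± 0.26 (Trat1), all called by edgeR. With background subtracted they were -0.05 ± 0.19, 0.09 ± 0.35, -0.10 ± 0.20 and 0.29 ± 0.19 in the same order, and none was called. Lck, Zap70 and Lat each turned negative in 4 of 17 alternatives.

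In counts, 9 of the 9 genes were called higher in stimulated KLF2+ than in stimulated KLF2- cells with TMM scaling, where 75.2% of all tested genes were called in either direction and 35.5% were called higher and 39.7% lower. Their median log2 fold change was 1.41, against -0.19 over all tested genes. With background subtracted, 2 were called higher and 1 lower, where 54.5% of 15292 tested genes were called, 16% higher and 38.6% lower. The members' median was then 0.10, against -0.47 over all tested genes. With factors from genes of at least 50 CPM and no subtraction of background, the medians were 0.23 and -1.39. In the same comparison, the T cell markers other than members summed to 3154 and 3530 CPM in stimulated KLF2+ cells, against 1183 and 1217 CPM in stimulated KLF2- cells, and 10 of 10 T cell markers, members included, were called higher with TMM. Marker sums, here and elsewhere, are on the TMM scale only. In TPM, Cd2 (521 and 589, against 255 and 194) and Cd28 (138 and 132, against 101 and 110) were higher in stimulated KLF2+ cells. Bcl11b was lower there (30.6 and 32, against 54.1 and 43.9 TPM), and Cd5 and Cd6 overlapped. Myeloid markers summed to 79.8 and 125.4 CPM in stimulated KLF2+ cells, against 137.8 and 151 CPM in stimulated KLF2- cells, with 2 of 15 called higher and 6 lower, and S100a8 and C1qb were at 0 in 1 KLF2- library each. B cell markers summed to 188 and 249.4 CPM in stimulated KLF2+ cells, against 81.2 and 143.8 CPM in stimulated KLF2- cells, with 4 of 10 called higher and 1 lower. NK cell markers summed to 41.3 and 48.2 CPM in stimulated KLF2+ cells, against 51.6 and 61.2 CPM in stimulated KLF2- cells, with 1 of 7 called lower. Erythroid and platelet markers summed to 137.5 and 92.4 CPM in stimulated KLF2+ cells, against 27.1 and 30.8 CPM in stimulated KLF2- cells, with 3 of the 8 tested called higher, and Hbb-bt and Gp1bb at 0 in stimulated KLF2- replicate 4. The part of these markers in the members' results was not tested. Background reads made up at most 1.89% of the exon reads of any member in any library, except for Zap70 (up to 6.99%) and Trat1 (up to 16.9%), both in stimulated KLF2- replicate 4.

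**Figure D2:**
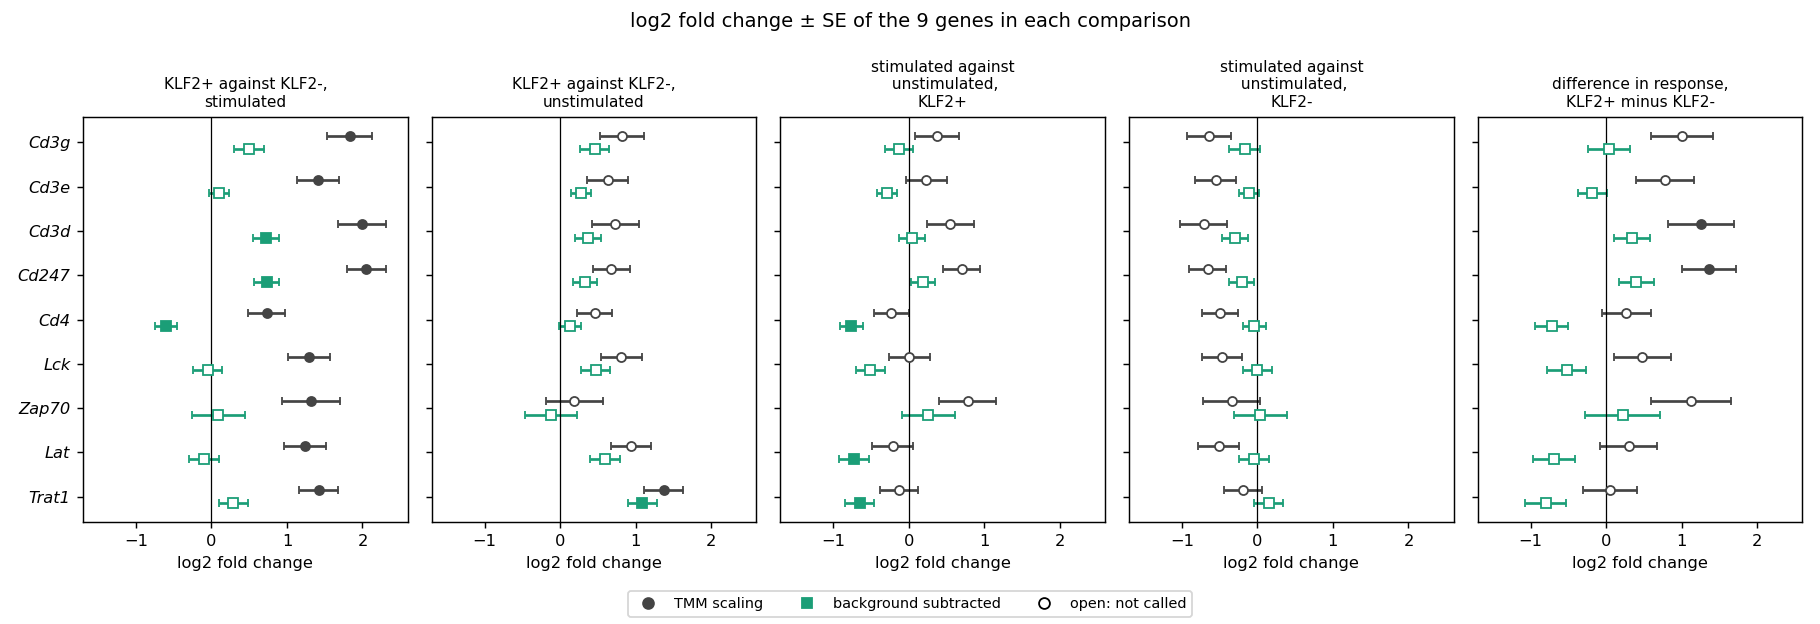
Estimated log2 fold change of the 9 genes with its standard error in each of the 5 comparisons, with TMM scaling (circles) and with background subtracted (squares), where filled points were called at an adjusted p under 0.05. In the stimulated comparison, Cd3d and Cd247 stayed positive and called on both scales, while Cd4 moved from 0.73 to -0.60.

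Ratios within a library do not depend on the scaling factor, but those in TPM still hold background. Relative to Cd3e, in TPM, Cd247 stood at 0.641 and 0.727 in stimulated KLF2+ cells, at 0.488 and 0.497 in unstimulated KLF2+ cells, at 0.397 and 0.495 in stimulated KLF2- cells and at 0.493 and 0.460 in unstimulated KLF2- cells. Cd3d stood at 0.921 and 0.871 of Cd3e in stimulated KLF2+ cells, at 0.672 and 0.749 in unstimulated KLF2+ cells, at 0.658 and 0.516 in stimulated KLF2- cells and at 0.715 and 0.627 in unstimulated KLF2- cells. Both ratios were therefore highest in the 2 stimulated KLF2+ libraries. Cd4 had its lowest ratios there, at 0.392 and 0.429 of Cd3e, against 0.624 and 0.525 in unstimulated KLF2+ cells. In the KLF2- cells Cd4 stood at 0.583 and 0.751 of Cd3e with stimulus and at 0.680 and 0.592 without it. Zap70 stood at 0.0949 and 0.210 of Cd3e in stimulated KLF2+ replicates 1 and 2, a wider gap than that between any pair of the other libraries.

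Between stimulated KLF2+ and stimulated KLF2- cells, the ratios of Cd3g, Cd3d and Cd247 to Cd3e were higher in both KLF2+ libraries and that of Cd4 was lower. The other 4 overlapped. By the same measure 83.2% of 5240 genes of at least 50 CPM did not overlap between these groups, 34.7% higher and 48.5% lower. The mean ratio was 0.684 ± 0.061 in stimulated KLF2+ cells and 0.446 ± 0.0694 in stimulated KLF2- cells for Cd247, and 0.411 ± 0.0257 in stimulated KLF2+ cells and 0.667 ± 0.119 in stimulated KLF2- cells for Cd4 (SD, n = 2 each). With 2 libraries a group, these ratios were not tested.

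**Figure D3:**
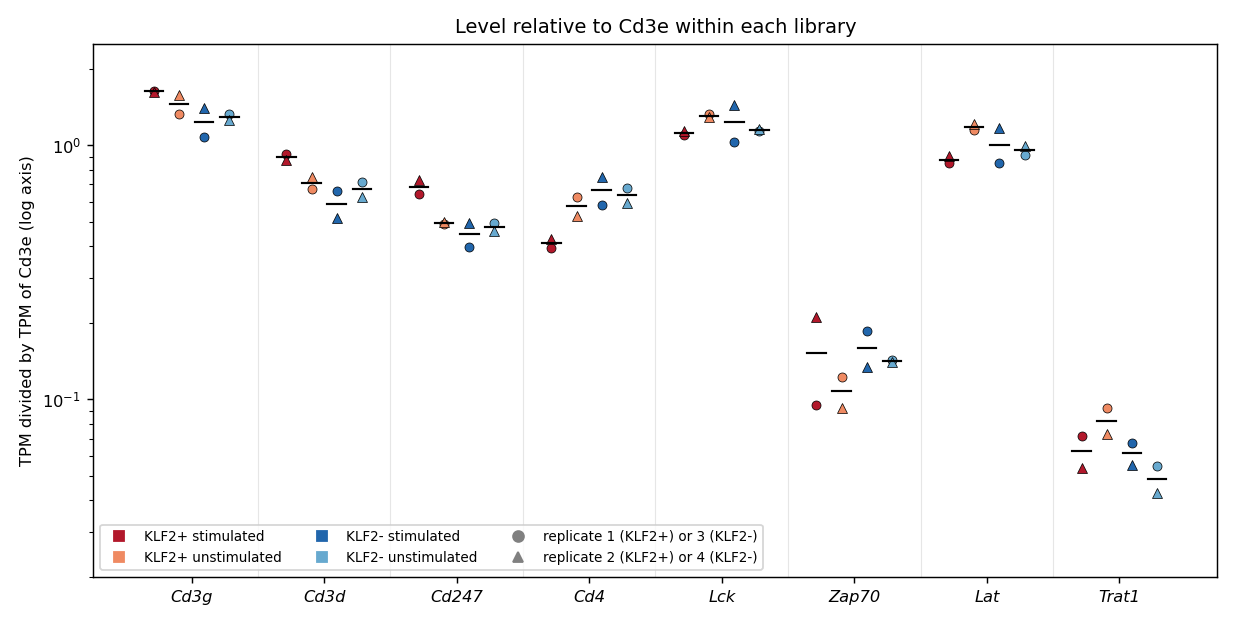
Level of 8 genes divided by that of Cd3e in the same library, from TPM (log axis), with points for libraries and a bar for each group's mean. In stimulated KLF2+ cells Cd247 (0.641 and 0.727) and Cd3d (0.921 and 0.871) had their highest ratios and Cd4 (0.392 and 0.429) its lowest.

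Without stimulus, Trat1 stood higher in KLF2+ cells. It had 184 and 221 CPM in KLF2+ cells, against 82.7 and 74.6 CPM in KLF2- cells, so that the groups did not overlap, as for 59% of tested genes. The log2 fold change was 1.37 ± 0.26 with TMM (SE, n = 2 each; Benjamini-Hochberg adjusted p = 0.0246, edgeR quasi-likelihood) and 1.09 ± 0.19 with background subtracted. Trat1 was the 1 member of 9 called on either scale, where 2.32% of tested genes were called with TMM and 4.02% with background subtracted. It was called in 14 of 17 alternatives, with log2 fold changes from 0.97 to 1.56. The call was lost without unstimulated KLF2+ replicate 2 (1.23; edgeR adjusted p = 0.184), unstimulated KLF2- replicate 3 (1.45; 0.281) or unstimulated KLF2- replicate 4 (1.30; 0.324), in a range of 8.97e-05 to 0.324 over the alternatives.

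The other 8 members were not called without stimulus. Lat had 613 and 986 CPM in unstimulated KLF2+ cells, against 372 and 462 CPM in unstimulated KLF2- cells, a log2 difference of 0.94 ± 0.27 (SE, n = 2 each; 95% interval 0.33 to 1.55). Lck had 1178 and 1753 CPM in KLF2+ cells, against 771 and 896 CPM in KLF2- cells, with a log2 fold change of 0.81 ± 0.27 (0.20 to 1.43). For both genes the KLF2+ libraries lay above the KLF2- libraries, and replicate 2 was the higher KLF2+ library. Without unstimulated KLF2+ replicate 1, the log2 fold changes were 1.31 (Lat), 1.26 (Cd3g), 1.14 (Lck), 1.04 (Cd247) and 1.56 (Trat1). With all libraries, the CD3 chains had log2 fold changes of 0.63 to 0.82 and Cd4 of 0.46 ± 0.23, all positive. Zap70 gave 0.19 ± 0.38 with TMM and -0.12 ± 0.35 with background subtracted. Relative to Cd3e, the ratios of Lck, Lat and Trat1 were higher in both unstimulated KLF2+ libraries and that of Zap70 was lower, while 4 overlapped. By the same measure 63.7% of genes of at least 50 CPM did not overlap, 7.71% higher and 56% lower. Myeloid markers (15 of 15 in the table) summed to 1009 and 1813 CPM in unstimulated KLF2+ cells, against 189.9 and 144.8 CPM in unstimulated KLF2- cells. Of these, 4 were called higher and S100a8 was at 0 in 1 KLF2- library. B cell markers (10 of 10) summed to 150.1 and 252.7 CPM in the KLF2+ libraries, against 93.96 and 113.7 CPM in the KLF2- libraries. NK cell markers (7 of 7) summed to 108.7 and 163.7 CPM in the KLF2+ libraries, against 68.2 and 61.2 CPM in the KLF2- libraries, with 1 called higher. Their part in the results was not tested.

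Stimulation of KLF2+ cells left 0 of the 9 members called with TMM scaling by edgeR, where 37.1% of tested genes were called, and 1 member, Cd247, had an unadjusted p under 0.05. DESeq2 called 1, also Cd247 (0.70). Cd247 had 664 and 778 CPM in stimulated cells, against 347 and 540 CPM in unstimulated cells, a log2 fold change of 0.70 ± 0.25 (SE, n = 2 each; Benjamini-Hochberg adjusted p = 0.0526, edgeR quasi-likelihood). The stimulated libraries lay above the unstimulated ones, and 75.3% of tested genes did not overlap in this comparison. With the replicate number as a block, 2 members were called: Cd247 at 0.73 (edgeR adjusted p = 0.028) and Zap70 at 0.67 (edgeR adjusted p = 0.0243), in ranges of 0.013 to 0.864 and 0.0176 to 1 over 18 alternatives. The fit with the block called 10851 of 19146 tested genes. Without unstimulated KLF2+ replicate 2, the log2 fold changes were 1.02 (Cd3d), 0.90 (Cd3g) and 1.10 (Cd247). That of Zap70 was 1.26 without stimulated KLF2+ replicate 1. That of Cd247 was 0.71 or 0.70 without stimulated KLF2- replicate 3 or 4.

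With background subtracted, 3 members fell after stimulation of KLF2+ cells, where 29.1% of tested genes were called and 16.4% were called lower. Cd4 had 496 and 553 background-subtracted CPM in stimulated KLF2+ cells, against 893 and 884 in unstimulated KLF2+ cells. Lat had 437 and 475 in stimulated cells, against 673 and 833 in unstimulated cells. Trat1 had 138 and 106 in stimulated cells, against 198 and 185 in unstimulated cells. In each of the 3 genes both stimulated libraries lay below both unstimulated libraries, and 74% of tested genes did not overlap on this scale. The log2 fold changes were -0.76 ± 0.15 for Cd4, -0.72 ± 0.20 for Lat and -0.65 ± 0.19 for Trat1 (SE, n = 2 each). The edgeR adjusted p were 0.0132, 0.0327 and 0.0387, in ranges over 18 alternatives of 0.00113 to 0.993, 0.00752 to 0.802 and 0.0132 to 0.94. With TMM scaling they were -0.23 ± 0.23, -0.21 ± 0.27 and -0.13 ± 0.25 and none was called. Each was called in 6 of 18 alternatives, those that subtracted background, took factors from abundant genes or used TPM. Lck gave -0.51 ± 0.19 with background subtracted, which did not pass, and 0.01 ± 0.27 with TMM.

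Relative to Cd3e, the stimulated KLF2+ libraries had higher ratios than the unstimulated ones for 3 members (Cd3g, Cd3d and Cd247), lower ratios for 4 (Cd4, Lck, Lat and Trat1) and overlapping ratios for Zap70. Over genes of at least 50 CPM, 77.4% did not overlap, with 54.2% higher and 23.1% lower. The mean ratio of Lat to Cd3e was 0.875 ± 0.0406 in stimulated and 1.18 ± 0.044 in unstimulated KLF2+ cells, and that of Lck was 1.11 ± 0.0324 in stimulated and 1.30 ± 0.0229 in unstimulated KLF2+ cells (SD, n = 2 each). Myeloid markers summed to 79.8 and 125.4 CPM in stimulated KLF2+ cells, against 1009 and 1813 CPM in unstimulated KLF2+ cells, with 14 of 15 called lower and none at 0. NK cell markers summed to 41.3 and 48.2 CPM in stimulated KLF2+ cells, against 108.7 and 163.7 CPM in unstimulated KLF2+ cells, with 3 of 7 called lower. Their part in these results was not tested.

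In KLF2- cells, 0 of the 9 members were called after stimulation by edgeR, DESeq2 or limma. By edgeR 0% of tested genes were called with TMM, and 2802 genes, among them 2 members (Cd3d and Cd247), had an unadjusted p under 0.05. Cd3d had 233 and 141 CPM in stimulated KLF2- cells, against 306 and 307 CPM in unstimulated KLF2- cells. Its log2 fold change was -0.71 ± 0.31 (SE, n = 2 each; 95% interval -1.41 to -0.01) with TMM and -0.30 ± 0.17 with background subtracted. Cd247 had 178 and 171 CPM with stimulus, against 268 and 286 CPM without it, and log2 fold changes of -0.66 ± 0.25 (-1.23 to -0.10) and -0.21 ± 0.16 on these scales. All 9 estimates were negative with TMM and 6 of 9 with background subtracted, where the members' median was -0.04. Relative to Cd3e in TPM, Trat1 was higher in both stimulated KLF2- libraries, at 0.0671 and 0.0553, against 0.0544 and 0.0429 without stimulus, and the other 7 members overlapped, where 41.6% of genes did not (35% higher and 6.6% lower). These TPM ratios still hold background. It made up 6.97% and 16.9% of Trat1 reads in stimulated KLF2- cells, against 5.55% and 5.74% in unstimulated KLF2- cells. With background subtracted, the CPM of Trat1 overlapped between these groups. Stimulated KLF2- replicate 4 had the lowest depth, with 645.5 counts for Cd3d, 282 for Zap70 and 245.5 for Trat1.

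The response to stimulation differed between KLF2+ and KLF2- cells for 2 members with TMM scaling, where 35.8% of tested genes were called and 20.3% were called higher. The difference in log2 fold change was 1.26 ± 0.44 for Cd3d (SE; Benjamini-Hochberg adjusted p = 0.0496, edgeR quasi-likelihood) and 1.36 ± 0.36 for Cd247 (adjusted p = 0.0245 by the same edgeR test). Both zeta and delta chain transcripts had positive estimates in KLF2+ cells and negative ones in KLF2- cells. With the replicate number as a block, edgeR called 4 members: Cd3d (1.35), Cd3g (1.07), Cd247 (1.39) and Zap70 (1.07). The same fit called 10857 of 19146 tested genes. With background subtracted the values were 0.34 ± 0.24 for Cd3d and 0.40 ± 0.23 for Cd247, no member was called (3 had an unadjusted p under 0.05), and 11.8% of tested genes were called. Both differences were positive in 18 of 18 alternatives, called in 5 for Cd3d and in 7 for Cd247. The estimates for Cd4 (0.27 ± 0.33 with TMM and -0.72 ± 0.22 with background subtracted), Lat (0.30 ± 0.38 and -0.69 ± 0.28), Lck (0.48 ± 0.38 and -0.52 ± 0.26), Trat1 (0.05 ± 0.36 and -0.80 ± 0.27) and Cd3e (0.78 ± 0.38 and -0.18 ± 0.19) changed sign with the scaling, and none was called on these scales. The call for Cd247 was lost without unstimulated KLF2+ replicate 1 (1.05), stimulated KLF2+ replicate 2 (1.24), or unstimulated KLF2- replicate 3 (1.44) or 4 (1.35). That for Cd3d was lost without these 4 libraries (0.89, 1.27, 1.29 and 1.28 in the same order) and without stimulated KLF2+ replicate 1 (1.24) or stimulated KLF2- replicate 4 (0.95). Cd3g (1.54) and Cd3e (1.16) were called without unstimulated KLF2+ replicate 2, and Zap70 without stimulated KLF2+ replicate 1 (1.61) or stimulated KLF2- replicate 3 (1.67).

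Positive partners that act beside or just after the members were read as a list of 19 genes, all tested. In stimulated KLF2+ against stimulated KLF2- cells, 14 were called higher and 0 lower with TMM, against 3 higher and 5 lower with background subtracted. The shares over all tested genes were those given for the members, 35.5% higher and 39.7% lower with TMM and 16% higher and 38.6% lower with background subtracted. Prkcq, the kinase PKC theta, was called higher on both scales, by 1.75 ± 0.24 with TMM and 0.47 ± 0.12 with background subtracted (log2, SE, n = 2 each). Themis (1.80 ± 0.22), Bcl10 (1.57 ± 0.23) and Lcp2 (1.71 ± 0.27) were called higher with TMM, Themis (0.60 ± 0.21) and Lcp2 (0.42 ± 0.12) also with background subtracted. Sos1 (-1.27 ± 0.26) and Plcg1 (-1.03 ± 0.22) were called lower with background subtracted. Without stimulus 0 of the 19 were called by edgeR with TMM (5 had an unadjusted p under 0.05), with Ptprc, the phosphatase CD45 and the most abundant, at 0.46 ± 0.27, and 1 was called lower with background subtracted, Malt1 (-0.74 ± 0.16), where 2.32% and 4.02% of all tested genes were called on these scales.

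Partners were called in both directions after stimulation of KLF2+ cells. So were tested genes at large, 3771 higher and 3325 lower with TMM and 1937 and 2510 with background subtracted. Lcp2, which encodes the adaptor SLP-76, had 1210 and 1230 CPM in stimulated KLF2+ cells, against 552 and 715 CPM in unstimulated KLF2+ cells, and rose by 0.95 ± 0.26 with TMM and 0.42 ± 0.12 with background subtracted (log2). Sh2d2a, a T cell adaptor that binds Lck, had 659 and 614 CPM in stimulated KLF2+ cells, against 213 and 271 CPM in unstimulated KLF2+ cells, and rose by 1.40 ± 0.39 with TMM. With background subtracted Sh2d2a gave 0.88 ± 0.31, which was not called. Both stimulated libraries lay above both unstimulated ones for these genes. The Tec family kinase gene Tec gave -0.80 ± 0.24 with TMM and -1.28 ± 0.22 with background subtracted, Txk gave -0.76 ± 0.25 and -1.27 ± 0.17, and Plcg1, the phospholipase bound to LAT, gave -0.55 ± 0.19 and -1.10 ± 0.22, all called lower on both scales. In all, 3 of 19 were called higher and 3 lower with TMM, and 1 higher and 6 lower with background subtracted, where 37.1% and 29.1% of all tested genes were called. In KLF2- cells 0 of 19 were called after stimulation by edgeR on either scale (12 and 3 had an unadjusted p under 0.05), with Ptprc at -0.61 ± 0.27. With the replicate block 3 were called, beside 770 of all 19146 tested genes. For the difference in response, 7 were called higher with TMM, among them Malt1 (1.36 ± 0.32), Themis (1.25 ± 0.30), Sh2d2a (2.12 ± 0.56) and Lcp2 (1.41 ± 0.37), against 1 lower with background subtracted, Txk (-1.11 ± 0.24), where 35.8% and 11.8% of all tested genes were called.

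Negative regulators formed a list of 20 genes, all tested. In stimulated KLF2+ against stimulated KLF2- cells, 16 were called higher and 1 lower with TMM, against 2 higher and 6 lower with background subtracted, where 75.2% and 54.5% of all tested genes were called. Ptprj, a receptor phosphatase, was the lower gene on both scales, at -2.24 ± 0.27 and -3.42 ± 0.35, while Ptpn6, the phosphatase SHP-1, was higher by 1.75 ± 0.23 with TMM, Ptpn2 by 1.63 ± 0.23 and Sla2 by 1.46 ± 0.26. Dok1 (-1.79 ± 0.22), Cblb (-0.62 ± 0.14) and Dgkz (-0.69 ± 0.16) were called lower with background subtracted. Without stimulus, Ptpn6 (1.03 ± 0.23) and Sit1 (1.22 ± 0.25) were called higher with TMM, and Ptpn6 higher (0.70 ± 0.12) and Dok1 lower (-1.16 ± 0.22) with background subtracted (2.32% and 4.02% of all tested genes). After stimulation of KLF2+ cells, Ptpn2, a phosphatase of LCK and JAK kinases, had 328 and 325 CPM in stimulated cells, against 118 and 175 CPM in unstimulated cells, and rose on both scales (1.16 ± 0.23 and 0.69 ± 0.13). Sit1, a transmembrane adaptor that dampens receptor signalling, had 51.5 and 54.1 CPM in stimulated KLF2+ cells, against 72 and 122 CPM in unstimulated KLF2+ cells, and fell on both scales (-0.88 ± 0.25 and -1.38 ± 0.19). Dgka, a diacylglycerol kinase, also fell on both (-1.05 ± 0.32 and -1.58 ± 0.36). In all, 3 were called higher and 3 lower with TMM, and 1 higher and 6 lower with background subtracted, with Lax1 (-0.96 ± 0.22) among the 6, beside 37.1% and 29.1% of all tested genes. In KLF2- cells 0 of 20 were called by edgeR on either scale (8 and 3 had an unadjusted p under 0.05), with Dgka at -0.58 ± 0.32. With the replicate block 1 was called, beside 770 of all 19146 tested genes. For the difference in response, 5 were called higher and 1 lower with TMM, and 1 each with background subtracted (35.8% and 11.8% of all tested genes). Of these, Ptpn2 was called higher (1.63 ± 0.33 and 0.84 ± 0.18) and Ptprj lower (-1.41 ± 0.37 and -2.16 ± 0.46) on both scales.

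**Figure D4:**
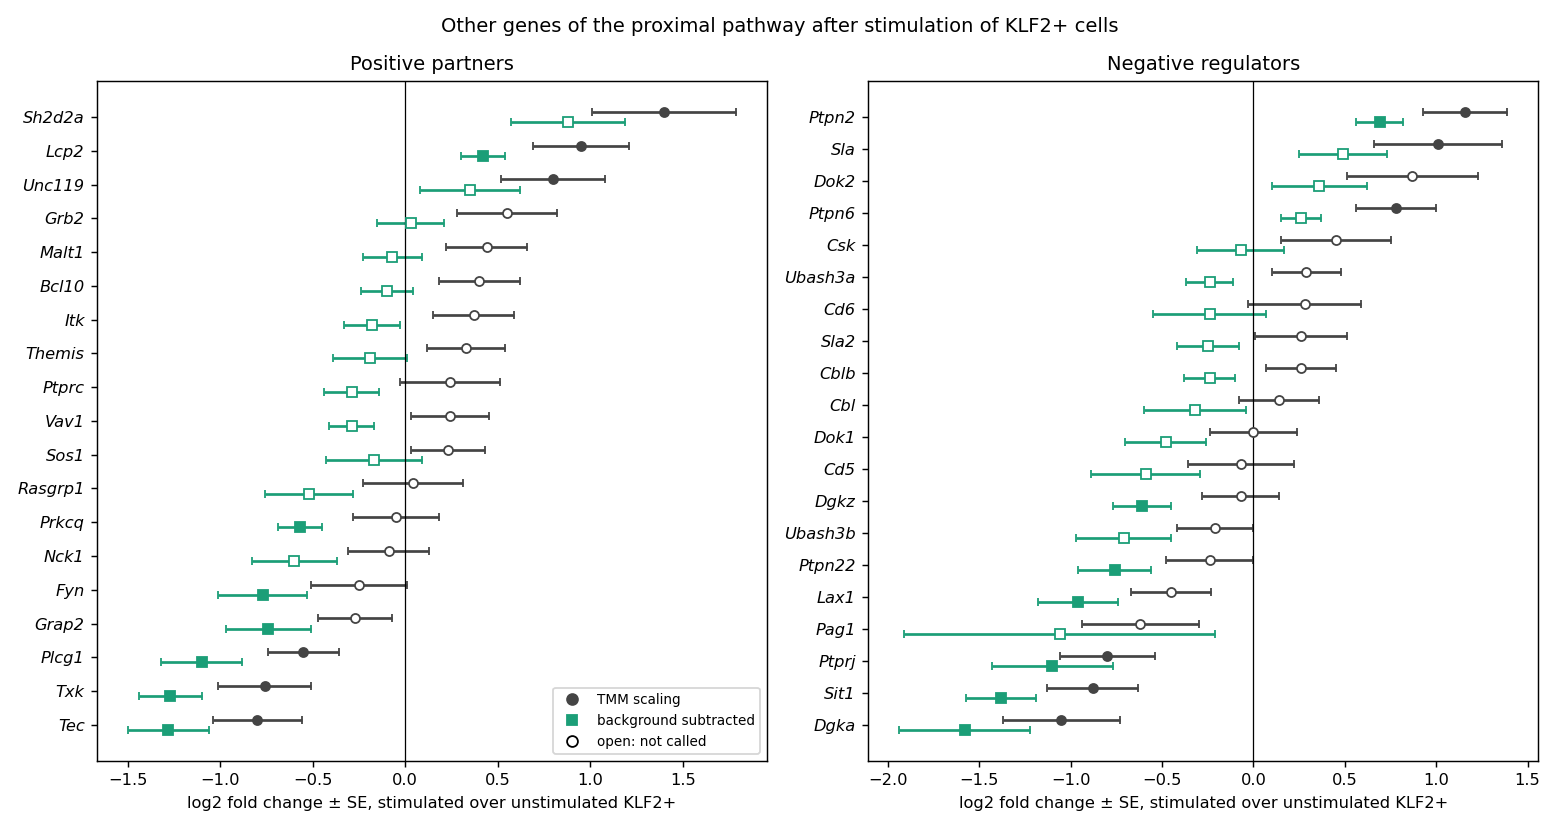
Estimated log2 fold change with its standard error of 19 positive partners (left) and 20 negative regulators (right), stimulated over unstimulated KLF2+ cells, with TMM scaling (circles) and background subtracted (squares), filled where called. Lcp2 and Ptpn2 were called higher and Tec, Txk, Plcg1, Ptprj, Sit1 and Dgka lower on both scales.

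The genes that do the members' work in B cells and myeloid cells were a list of 10, all tested. In stimulated KLF2+ against stimulated KLF2- cells, 4 were called higher and 2 lower with TMM, and 4 and 3 with background subtracted, where 75.2% and 54.5% of all tested genes were called. The B cell genes Blnk (4.68 ± 0.58), Cd79a (4.13 ± 0.83) and Cd79b (2.78 ± 0.46) were higher with TMM, and Fcer1g, a signalling chain of Fc receptors related to zeta, was lower (-1.89 ± 0.32 with TMM and -3.19 ± 0.29 with background subtracted). The Src family gene Lyn (-1.99 ± 0.32) and the ZAP-70 relative Syk (-1.11 ± 0.22) were called lower with background subtracted. Fcer1g averaged 19.1 CPM in stimulated KLF2+ cells and 70.7 CPM in stimulated KLF2- cells, against 720.9 CPM and 174.4 CPM for Cd247 in the same groups. After stimulation of KLF2+ cells, Fcer1g (-1.91 ± 0.32) and Lyn (-0.73 ± 0.24) fell with TMM and with background subtracted, while Blnk rose (1.71 ± 0.46) and Fgr fell (-1.33 ± 0.47) with TMM alone. This gave 1 higher and 3 lower with TMM and 0 higher and 3 lower with background subtracted, beside 37.1% and 29.1% of all tested genes. Without stimulus Cd79a was called higher in KLF2+ cells with TMM (3.44 ± 0.74), and 0 of 10 were called with background subtracted (2.32% and 4.02% of all tested genes). In KLF2- cells 0 of 10 were called after stimulation by edgeR on either scale, and 0 had an unadjusted p under 0.05. For the difference in response, 1 was called higher (Blnk, 2.82 ± 0.75) and 2 lower with TMM, Fgr at -2.36 ± 0.68 and Fcer1g at -1.41 ± 0.44, and 2 lower with background subtracted, with Fcer1g at -2.35 ± 0.38. Of all tested genes, 35.8% and 11.8% were called on these scales. With the replicate block 5 of the 10 were called, 2 higher and 3 lower, beside 10857 of all 19146 tested genes. Constant-region genes of the receptor itself (7 listed) were not found by symbol in the table used here, so they could not be analysed.

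The 4 CD3 and zeta genes moved together over the 8 libraries. Each had a Pearson r of 0.990 to 0.993 with their mean log2 CPM, against 0.960 for Lck, 0.923 for Lat, 0.889 for Trat1, 0.869 for Cd4 and 0.790 for Zap70. These values describe 8 libraries that share the scaling, and the 4 genes are part of the mean. Among 5165 genes of at least 50 CPM outside the set, those with the most similar profile were Pdcd6 and Nt5c (r = 0.999 each) and Cpsf3, Atp6v0b and Tmem179b (r = 0.998 each). Of all pairs of members, Lck and Lat were the closest (r = 0.991), and Zap70 and Trat1 the least close (r = 0.609).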

How the data were processed

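The data were 8 RNA-seq libraries from sorted mouse CD4 T cells. Reads over the exons of 1 RefSeq transcript per gene (mm10) were counted with HOMER without adjustment for depth, per the file headers. The authors deposited these estimated counts, which come in steps of 0.5. The authors also deposited TPM for the same libraries. These sum to less than the usual TPM total in each library, and the reason is not given in the sources used here. The submitters' processing notes name STAR 2.7.9, HOMER 4.11, SAMtools and DESeq2. Read filters and strand treatment are not given in the sources used here.

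Counts were rounded to whole numbers, filtered with filterByExpr (19146 of 25124 genes) and scaled with TMM. One edgeR 4.0.16 model (R 4.3.3) held all 8 libraries, with 1 coefficient per group and 4 residual degrees of freedom. Each contrast was given a quasi-likelihood F test, adjusted by Benjamini-Hochberg over the genes tested, and called at an adjusted p under 0.05. Standard errors are the log2 fold change over the square root of F. Background was the read density over the exons (1683.9 kb) of 1464 vomeronasal and olfactory receptor genes, multiplied by each gene's length and subtracted, with TMM factors from genes at 50 CPM or more (15292 genes tested). Other alternatives were other size factors, no filter, DESeq2 1.42.0, limma 3.58.1 on log2(TPM + 1) or log2(TPM + 0.1), each library left out in turn, and a replicate block.

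Replicate numbers 1 and 2 recur in both KLF2+ groups and 3 and 4 in both KLF2- groups. Same-numbered libraries deviated together from their group means (r = 0.65 and 0.26 over 10395 genes). The numbers were taken as pairs only in the replicate block, and the main model held no term for them. Background was also higher in replicate 1 than in replicate 2 of unstimulated (7.06% and 2.61%) and stimulated (1.24% and 0.401%) KLF2+ cells. These r values therefore cannot tell a shared source from shared library quality. The labels do not say what the numbers stand for.

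The members and gene lists were chosen with earlier results of these data known. Some genes of these lists are not reported here. Members were always named. From each other list, up to 4 called genes with the smallest p were named, or the most abundant where none was called, and further called genes of the KLF2+ response were chosen after their values were seen. The profile of the CD3 genes was matched by Pearson r. The count script was tested on simulated data.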

Additional observations from a re-analysis of the deposited data

Results flagged for a closer look

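The response to stimulation differed between KLF2+ and KLF2- cells for 2 of the 9 genes, by the interaction term of edgeR's quasi-likelihood fit. Over all tested genes, 35.8% were called for this term and 20.3% were called higher, so such calls were common at large. For Cd3d the difference in log2 fold change was 1.26 (Benjamini-Hochberg adjusted p = 0.0496 by edgeR), from an estimate of 0.55 in KLF2+ cells and -0.71 in KLF2- cells. For Cd247 it was 1.36 (adjusted p = 0.0245 by edgeR), from 0.70 in KLF2+ cells and -0.66 in KLF2- cells. Neither response passed edgeR's test within its own population without a replicate block. With the block, Cd247 was called in KLF2+ cells (0.73, edgeR adjusted p = 0.028), as it was by DESeq2 without a block (0.70). With background subtracted the differences were 0.34 and 0.40 and neither was called, while the depth of the libraries and their share of background differed between the same groups.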

How the results depend on the processing

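Each comparison was repeated under 17 or 18 alternatives, in which calls over all tested genes moved too. Between stimulated groups, TMM called 6799 genes higher and 7597 lower of 19146. Factors from genes of at least 50 CPM called 2280 higher and 11169 lower. Limma on log2(TPM + 1) called 1776 higher and 10433 lower of 17147. In the KLF2+ response these fits called 3771 and 3325, 2167 and 5667, and 1540 and 3220 in the same order. For the difference they called 3890 and 2965, 1017 and 5102, and 726 and 3913. In stimulated KLF2+ against KLF2- cells, 9 members were called, against 4 with factors from genes of at least 50 CPM, 3 with background subtracted, 3 in each of the 3 limma fits on TPM and 4 with background subtracted and stimulated KLF2- replicate 4 left out, an analysis chosen after seeing the data. Leaving out a library gave 7 to 9. Without stimulus 1 member was called with TMM and 4 by DESeq2, and the number changed with a library left out. Over all genes, TMM called 204 higher and 240 lower of 19146, and DESeq2 635 and 482 of 24382. In the KLF2+ response, 0 were called, against 1 by DESeq2, 3 with factors from abundant genes, 3 with background subtracted, 4, 5 and 4 by limma, 2 with the replicate block, 4 in the added analysis and 0 to 3 with a library left out. In the KLF2- response, 0 were called in all 18. For the difference, 2 were called, against 1 with RLE factors, 1 with factors from abundant genes, 0 with background subtracted, 0 by limma with no filter, 4 with the replicate block, 0 in the added analysis and 0 to 4 with a library left out.

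Directions turned, where the value was called before or after, in stimulated cells for Cd3e (-0.02 in the 3 limma fits), Cd4 (-0.47 with abundant-gene factors, -0.60 with background subtracted, -0.71 by limma, -0.42 in the added analysis), Lck (-0.05 with background subtracted, -0.15 by limma), Zap70 (-0.17 by limma, -0.16 in the added analysis) and Lat (-0.10 with background subtracted, -0.20 by limma). In the KLF2+ response they turned for Cd3e (-0.42 by limma with a pseudocount of 0.1) and Lck (-0.65 by limma, -0.53 in the added analysis). In the difference they turned for Cd4 (-0.79 and -0.80 by limma) and Trat1 (-0.80 with abundant-gene factors, -0.96 and -0.98 by limma). Estimates called on neither side turned as well. In the KLF2+ response 6 of 9 estimates were positive with TMM, 3 with background subtracted (Cd3e at -0.29, Cd3g at -0.13 and Lck at -0.51 turned) and 1 by limma (Cd3d and Zap70 as well). In the difference 9 were positive with TMM, 4 with abundant-gene factors, 4 with background subtracted and 2 by limma. Those that turned with background subtracted were Cd3e, Cd4, Lck, Lat and Trat1, joined by limma's Cd3g (-0.01) and, in the added analysis, Zap70 (-0.03). Zap70 without stimulus turned in 6 alternatives, and Trat1 and Zap70 in the KLF2- response turned with background subtracted (0.15 and 0.04). The cause was not tested. Over all genes, the median log2 difference between stimulated groups moved from -0.19 to -1.39 with factors from abundant genes.

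The replicate block changed no other member call. Over all genes it called 770 in the KLF2- response, 10851 in the KLF2+ response and 10857 for the difference, against 0, 7096 and 6855 without it. No paired analysis was possible for KLF2+ against KLF2- because those groups share no replicate numbers. Depth was lowest in stimulated KLF2- replicate 4, with 2.99 M exon reads, and what it limits was not tested apart from the analyses without that library.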
